A study of Drosophila melanogaster with 4 samples.

Results

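Heterochromatin next to the centromeres, and sequence not placed on any chromosome, carried few of the L(3)mbt peaks listed for larval tissue of Drosophila melanogaster. The stricter filtered list held 17, all on heterochromatic scaffolds, and 3 of them were strong (17.6%, against 18.5% of that whole list). On unplaced sequence the filtered lists held 0 peaks, but the full ChIP list had 8 calls there with a height of 50 or more. They were 9.30% of its 86 calls there (exact interval for counting error 4.10 to 17.5%), against 6.84% of the whole full ChIP list. The interval holds that background share. The regions described are all peaks listed on the scaffolds 2LHet, 2RHet, 3LHet, 3RHet, XHet, U and Uextra, chosen by scaffold name alone. Over all 4 deposited lists they number 868 of 73018 entries. There are 17 in the L(3)mbt list at a false discovery rate of 0.5% (0.513% of that list), 24 in the list at 3% (0.525%), 154 of 18529 in the full L(3)mbt ChIP list and 673 of 46603 in the input list. Peaks on YHet were found in 0 of the 4 lists.

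Immunoprecipitated chromatin had been sequenced (ChIP-seq) from larvae of the third instar kept at 25 °C, with brain pooled with imaginal discs, those of the haltere, the wing and the third leg. The L(3)mbt ChIP group held 2 samples, taken from the w1118 strain, a white-eyed laboratory stock, and from Canton S, a wild-type stock, with a guinea pig antibody to a segment of L(3)mbt. The input group likewise held 1 sample from w1118 and 1 from Canton S, made without an antibody. Neither strain had been given a treatment or is labelled with a further allele. Each list stands for a group as a whole, so there is no spread between strains, no test over samples and no known depth. All intervals below are exact 95% intervals that cover counting error only and take the peak as the unit, and neighbouring peaks are not independent.

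L(3)mbt, the product of lethal (3) malignant brain tumour, is a tumour suppressor of the larval brain whose MBT repeats belong to a family of domains that bind methylated histone lysines. The study's title links it to insulators, DNA elements that keep neighbouring regulatory domains apart. Pericentric heterochromatin is packed with satellite repeats and transposon remnants, is marked by methylation of histone H3 on lysine 9 and by the protein HP1, and holds few genes. The Het scaffolds hold a part of it that is assigned to a named chromosome or arm. How much of it lies on the large arms themselves was not analysed here. U and Uextra are strings of contigs without a place in the genome, so a distance between contigs there is only a position in the joined record. The genes at these positions, and their sequences, were not analysed here.

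L(3)mbt peaks were sparse on the Het scaffolds. The 0.5% list held 17 there (interval 9.9 to 27.2), or 1.98 per Mb of span, against 27.4 per Mb on the 5 large arms. Span here runs from the first base to the end of the last peak in any list, since the assembled lengths were not used here. The ratio of the densities was 0.072 (0.042 to 0.116), and against the fourth chromosome, which is small and largely heterochromatic, it was 0.077 (0.040 to 0.142). The full ChIP list gave 68 peaks on the Het scaffolds, 7.93 per Mb, against 153.2 per Mb on the large arms, a ratio of 0.052 (0.040 to 0.066). The input list was thinned less. It had 534 peaks there, 62.3 per Mb against 380.7 per Mb on the large arms, a ratio of 0.164 (0.150 to 0.178). Of the 10 kb windows of the Het span, 30.1% held a full ChIP or input peak, against 93.1% on the large arms. Counted per 10 kb window with a listed peak, the ratios were 0.223 for the 0.5% list, 0.160 for the full ChIP list and 0.504 for input. The pooled Het scaffolds thus had fewer peaks than the arms by either count. By span, the interval of their full ChIP ratio lay below that of their input ratio. The same held on 2RHet, 3LHet and 3RHet singly. On XHet and 2LHet the full ChIP ratio was the larger, with overlapping intervals. On XHet it was 0.691 (0.316 to 1.31), against 0.433 (0.236 to 0.726) for input. On 2LHet it was 0.231 (0.085 to 0.504), against 0.124 (0.054 to 0.244) for input. Because input calls were also scarce, and whether the lists were called against each other is not stated, the part that sequence coverage has in these ratios was not tested.

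**Figure D1:**
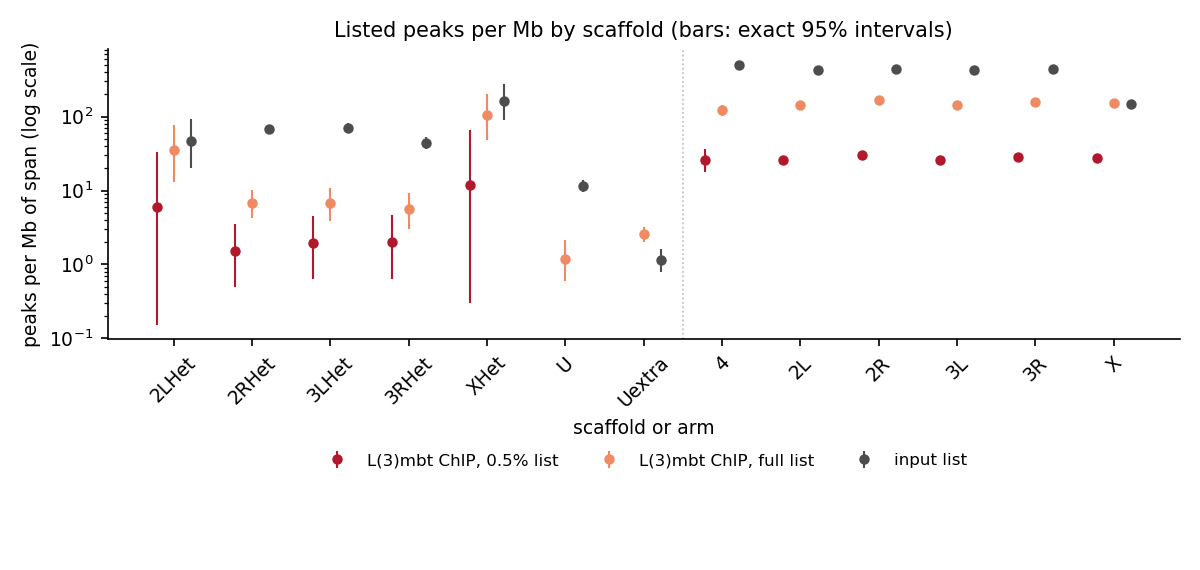
Peaks per Mb of span (vertical axis, log scale) on each Het or unplaced scaffold, left of the dotted line, and on the fourth chromosome and the large arms, right of it. Points are the L(3)mbt ChIP list at 0.5%, the full ChIP list and the input list, bars are exact 95% intervals, and scaffolds with no peak in a list have no point. On Uextra alone among the Het and unplaced scaffolds the ChIP point, at 2.59 per Mb, stands above the input point, at 1.14.

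The larger Het scaffolds resembled each other in ChIP peaks per Mb, though not in input or in score. 2RHet, 3LHet and 3RHet had 5 peaks each at the 0.5% rate, 1.53, 1.97 and 1.99 per Mb, with intervals that overlap widely. In the full ChIP list they held 22, 17 and 14 peaks, 6.74, 6.69 and 5.57 per Mb. Their input counts were 223, 178 and 111. Input was thinner on 3RHet, with 44.1 per Mb (36.3 to 53.1), than on 2RHet, with 68.3 (59.6 to 77.9), or on 3LHet, with 70.1 (60.1 to 81.1). The short scaffolds were poorly measured. XHet had 1 peak at the 0.5% rate, 9 in the full ChIP list and 14 in input over 0.085 Mb, and 2LHet had 1, 6 and 8 over 0.169 Mb. On both of these the span itself ends at an L(3)mbt peak, which raises the density, and input on 2LHet was at 47.2 per Mb.

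The 17 Het peaks fell into 3 strong and 14 weak ones. The authors' score, read as the mean signal per base of a 400 bp region, was 68.5 or more for the 3 and 15.9 or less for the other 14, with none between. In the whole 0.5% list, 18.5% of peaks scored 50 or more, and the 3 of 17 on the Het scaffolds (17.6%) are a share near that background. The median score was 11.6 (10.1 to 14.6) on the Het scaffolds and 15.7 (15.3 to 16.3) on the large arms, and 4 of the 17 were above the list's median of 15.6. On the fourth chromosome the median was 16.1 (12.3 to 25.2).

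All 3 strong sites lay on 3RHet, within 272 kb of each other. The highest ran from 2107012 to 2107411, in the release 5 names that the lists use, with a score of 188.9, above 98.2% of the 0.5% list and at rank 60. Its peak in the full ChIP list, from 2107078 to 2107347, had a height of 400.4, above 99.6% of that list. It stood alone: the next full ChIP peak was 144567 bp away and the nearest input peak 29182 bp away. The second, from 2378253 to 2378652, scored 87.2 with a height of 193.6, and the third, from 2349274 to 2349673, scored 68.5 with a height of 162.35. These are 28979 bp apart and lie above 90.2% and 86.6% of the list. The third had no input peak within 10 kb, while the second had 5 there, the nearest 650 bp away with a height of 5.15. Strong Het peaks were thus found on 1 scaffold: without 3RHet, the highest score was 15.9. The 3 sites together held 68.4% of the summed Het score.

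The other peaks of 3RHet were weak. They lay at 1808352 to 1808751 and at 1823825 to 1824224, 15473 bp apart, with scores of 8.91 and 9.18 and heights of 27.1 and 21.7. The first of these shared 67 bp with an input peak.

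On 2RHet the scores ran from 7.64 to 15.9. The highest was the region from 369901 to 370300, with a score of 15.9 and a height of 31.3, which is the only peak off 3RHet to score above the list's median. The region at 2629591 to 2629990 scored 13.2, that at 2775577 to 2775976 scored 10.5 and that at 1335914 to 1336313 scored 10.1. The lowest of all 17 ran from 3199079 to 3199478, with a score of 7.64, just above the lowest score in the list, 7.5025. Its height did not match that place: at 29.6 it was above 40.2% of the heights matched to the 0.5% list, where its score was above 1.33% of the scores. Its score was 0.258 times its height, the lowest of the 17, against a median of 0.443 on the Het scaffolds and of 0.449 on the large arms (middle 50% of peaks 0.404 to 0.504).

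On 3LHet the scores ran from 8.84 to 14.6. The highest was the region from 2397547 to 2397946, with a score of 14.6 and a height of 40.0, followed by that from 1396696 to 1397095, with a score of 14.1 and a height of 37.8. The regions from 601221 to 601620 and from 605910 to 606309, with scores of 11.9 and 8.84, are the closest 0.5% peaks on any Het scaffold, 4689 bp apart, in a stretch where each had 11 input peaks within 10 kb. The fifth, from 2190629 to 2191028, scored 11.0. The single peak of 2LHet, from 34487 to 34886, scored 11.6 with a height of 32.3 and had 4 other full ChIP peaks within 5 kb. The single peak of XHet, from 84618 to 85017, scored 11.5 with a height of 21.5 and had 0 input peaks within 10 kb.

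**Figure D2:**
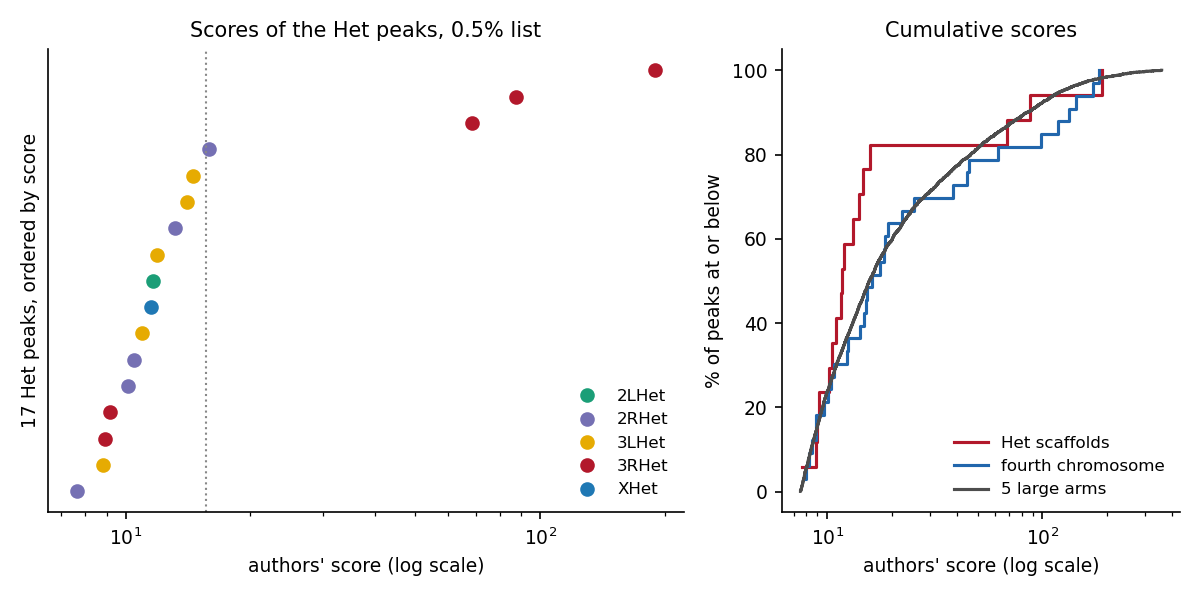
Left, the authors' score (log scale) of each of the 17 Het peaks in the L(3)mbt list at 0.5%, ordered by score and coloured by scaffold, with the median of the whole list, 15.6, as a dotted line; 3 peaks of 3RHet at 68.5 to 188.9 stand apart from the other 14. Right, the share of peaks at or below each score on the Het scaffolds (17 peaks), the fourth chromosome (33) and the large arms (3264).

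The relaxed rate of 3% added 7 Het peaks, all with scores of 6.03 to 7.19, below the cutoff of the stricter list. Of them, 4 lay on 2RHet. The one at 822684 to 823083 scored 7.19, the one at 2901507 to 2901906 scored 6.99, and those at 471608 to 472007 and at 1 to 400 scored 6.03 each. The last begins at the first base of the scaffold. It had the greatest height of the 7, 26.3, and its score was 0.229 times that height. 3RHet gained the region at 1898934 to 1899333 (score 7.15), 2LHet that at 168978 to 169377 (6.76) and 3LHet that at 2409627 to 2410026 (6.06). At this rate Het density over arm density was 0.074 (0.047 to 0.110), close to the ratio at 0.5%.

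Calls of the full ChIP list on the Het scaffolds were few, and how their heights compared with those on the arms depended on the threshold. Their median height was 9.27 (6.18 to 13.15, n = 68), against 7.11 (7.05 to 7.17, n = 18220) on the large arms. Of the 68, 17 were 20 or higher (25.0%, interval 15.3 to 37.0%), against 15.7% on the large arms and 15.8% of the whole list. At this height the interval holds the share of the whole list. At a height of 10 or more it did not: 30 of the 68 reached it (44.1%, 32.1 to 56.7%), against 31.1% (30.5 to 31.8%) on the large arms and 31.3% of the whole list. A height of 50 was reached by 3 of the 68 (4.41%, 0.919 to 12.4%), a smaller share than on the large arms (6.83%). The whole list had 6.84%, and the Het interval holds both. These shares count every call. Merging neighbours within 1000 bp absorbed 20.6% of the Het calls and 47.5% of the large arms' calls, and heights after merging were not compared. Of the Het calls, 17 (25.0%, 15.3 to 37.0%) overlapped a peak of the 0.5% list by at least 1 bp, against 20.8% of the large arms' calls and 20.8% of the whole list. For the 3% list it was 25 of 68 (36.8%), against 29.0% on the arms and 28.9% of the whole list. Among calls of height 20 or more, 15 of 17 on the Het scaffolds had a 0.5% peak (88.2%, 63.6 to 98.5%) and 17 of 17 a 3% peak, against 95.1% (94.2 to 95.9%) and 96.9% on the large arms. The Het interval holds the share on the arms, so a difference was not detectable with 17 calls.

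L(3)mbt peaks on the Het scaffolds lay far apart. Neighbouring 0.5% peaks on one Het scaffold were 263 kb apart in the median (29.0 to 794 kb, 12 distances), against 25.1 kb on the fourth chromosome and 18.0 kb on the large arms. Of the 12 Het distances 0 were under 1000 bp, which allows up to 26.5%, so a difference from the 5.65% on the large arms was not detectable. Other full ChIP calls near the 0.5% peaks were also fewer. Another full ChIP peak lay within 5 kb of 9 of the 17 Het peaks (52.9%), of 30 of 33 on the fourth chromosome (90.9%) and of 87.4% on the large arms. In the full ChIP list the median distance was 20.9 kb (4.93 to 74.4 kb), against 1.48 kb on the large arms. With neighbours within 1000 bp merged it was 54.0 kb, against 6.52 kb on the arms. In the input list it was 2.77 kb (2.09 to 3.62 kb), against 1.39 kb on the arms. Input calls within 10 kb of a 0.5% peak numbered 2 in the median on the Het scaffolds, 11 on the fourth chromosome and 7 on the large arms, and 4 of the 17 Het peaks (23.5%) had 0 against 1.38% on the arms.

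Peaks were unevenly placed along some scaffolds. In successive stretches of 25% of the span, 3RHet held 0, 0, 6 and 8 full ChIP peaks, where input had 22, 10, 29 and 50. All 14 of its ChIP peaks were between 1705912 and 2378588. 2RHet had ChIP calls throughout, with 8, 5, 2 and 7 against 79, 37, 55 and 52 input peaks. 3LHet had 5, 2, 1 and 9, against 57, 46, 23 and 52 input peaks.

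Among the Het scaffolds, the longest stretch free of ChIP calls between 2 calls was on 3LHet from 1397045 to 2190663, 0.794 Mb with 24 input peaks. Those on 2RHet, from 823040 to 1335978, and on 3RHet, from 2107348 to 2349279, held 26 and 4 input peaks. On 2LHet the longest ran from 35799 to 169041 with 5 input peaks and on XHet from 7261 to 50283 with 7. The longest stretch without an input call on 2RHet, from 2589664 to 2776499, held 2 full ChIP peaks, which are those of the 0.5% peaks from 2629591 and from 2775577. Input was missing over like lengths on 3LHet from 15370 to 205920 and on 3RHet from 431317 to 609190, each with 0 ChIP peaks, and over shorter ones on 2LHet from 34518 to 134432 and on XHet from 23887 to 43674, with 3 and 0. At the other end of the scale, the closest full ChIP calls overlapped on 2LHet, 2RHet and XHet, with centres 17, 44 and 56 bp apart and heights of 5.0 to 5.92. On 3LHet and 3RHet the closest pairs, 538 and 460 bp apart, each joined a higher call, of 40.0 and 162.35, to one below 10. The closest input calls were 3, 5 and 8 bp apart on 3LHet, 3RHet and 2RHet, all with heights of 5.0 to 5.05. On 2LHet, XHet, U and Uextra the closest input calls were 230, 167, 47 and 54 bp apart, and the closest ChIP calls on U and Uextra were 153 and 38 bp apart. Such near-duplicate calls mean that a count of listed peaks is not a count of separate sites.

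**Figure D3:**
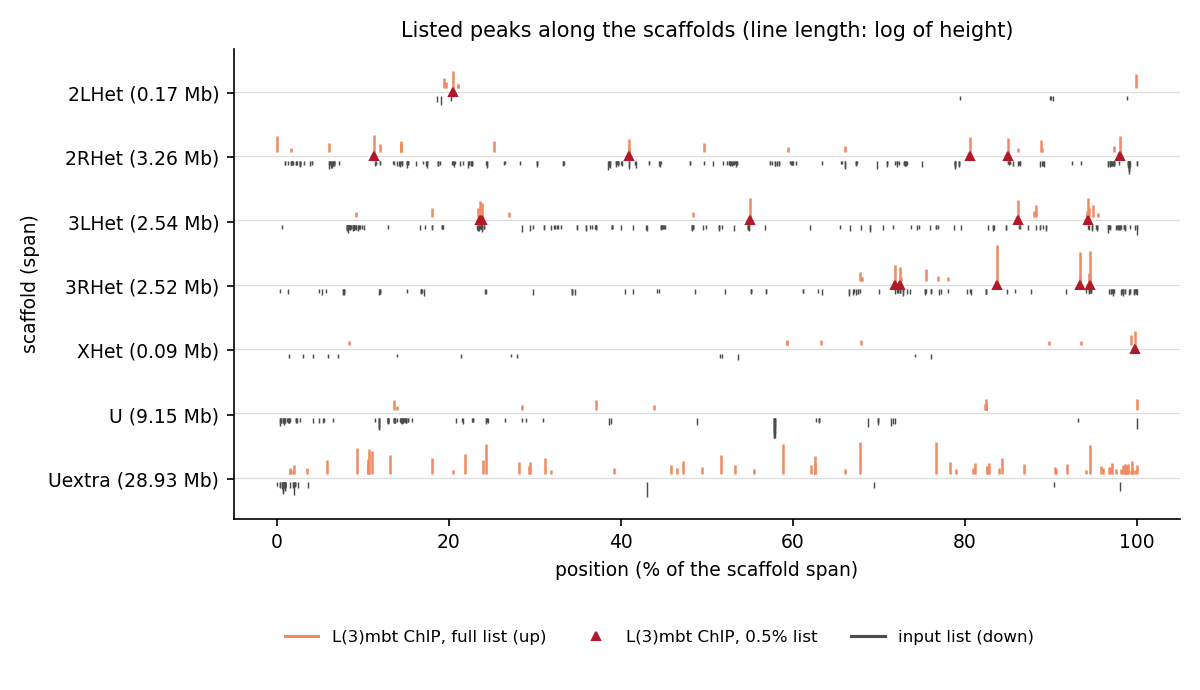
Listed peaks along each Het and unplaced scaffold, placed by percent of its span (horizontal axis). Lines above each axis are full L(3)mbt ChIP peaks and lines below are input peaks, with length by the log of the height in its own list, and triangles are the 17 peaks of the 0.5% list. ChIP lines on 3RHet begin at 1.71 Mb, and on Uextra ChIP lines run along nearly the whole length while 29 of the 33 input lines crowd into its first 1.03 Mb.

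Overlap with input was rare in number but not measurably different in share. Of the 17, 3 overlapped an input peak (17.6%, 3.8 to 43.4%), against 5.58% on the large arms and 5.70% of the whole 0.5% list, and the interval holds both of these shares. They were those on 2LHet from 34487, on 2RHet from 1335914 and on 3RHet from 1808352, with 31, 174 and 67 bp shared, and their scores were 8.91 to 11.6. In the full ChIP list 7 of 68 Het peaks (10.3%, 4.24 to 20.1%) overlapped an input peak, against 7.62% on the large arms and 7.66% of the whole list. With at least 50% of the peak covered, both Het shares were 0. The overlap of 174 bp on 2RHet was with an input peak whose centre lay inside the region, 161 bp from its centre. The 3 strong sites shared 0 bp with input peaks.

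Input calls on the Het scaffolds had heights near those on the arms. Their median height was 5.57 (5.50 to 5.69, n = 534), against 5.64 on the large arms, and 0 of 534 reached 20, which allows up to 0.688% by the exact interval. In the whole input list 0.0215% did. A height of 10 was reached by 7 of the 534 (1.31%, 0.529 to 2.68%), against 0.722% on the large arms and 0.775% of the whole list, which the interval holds. The highest was on 2RHet from 3233542 to 3233811, with a height of 19.1 and rank 12 in the list. It is the top of a cluster of 8 input peaks within 4.0 kb, from 3231138 to 3235139, where heights ran from 5.43 up to 19.1 and down again on the far side. The nearest full ChIP peak lay 31.7 kb from this cluster. The highest input peaks of the other Het scaffolds were on 3LHet from 2540274 to 2540543 (12.4), on 2LHet from 32267 to 32536 (9.93), on 3RHet from 2475987 to 2476256 (7.56) and on XHet from 45470 to 45739 (6.80).

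The unplaced scaffolds gave the lists' most divided picture. Uextra held 75 full ChIP peaks and 33 input peaks, 0.405% of the ChIP list and 0.0708% of the input list. U held 11 ChIP peaks and 106 input peaks, 0.0594% and 0.227% of the lists. By span, ChIP peaks were at 2.59 per Mb (2.04 to 3.25) on Uextra and 1.2 (0.600 to 2.15) on U, and input peaks at 1.14 (0.785 to 1.6) and 11.6 (9.48 to 14.0). Uextra was the only one of the 7 scaffolds with more ChIP calls than input calls. On the large arms that was so for X alone, with 3411 ChIP and 3356 input peaks.

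The strong ChIP calls on Uextra stood singly. Heights reached 50 at 8 of its 75 peaks (10.7%, 4.72 to 19.9%). In the whole ChIP list 6.84% did, a share that the interval holds. The highest was from 19603829 to 19604098, with a height of 253.2, above 98.8% of the list, followed by that from 22164649 to 22164918 with 240.5. Those from 7039437 to 7039706 and from 17026000 to 17026269 had 193.2 and 193.1. The remaining heights were 167.9 at 27346803 to 27347072, 106.0 at 2684541 to 2684810, 89.3 at 3094543 to 3094812 and 74.1 at 3204710 to 3204979, and the next peak down had 47.8. Another ChIP peak lay within 5 kb of 0 of these 8, which allows a share of up to 36.9%, against 85.5% (83.4 to 87.4%) of the peaks of that height on the large arms. Contigs joined into Uextra may be shorter than that distance, and their ends were not analysed here. Few close neighbours were not particular to the 8. Of the 17 Uextra calls of height 20 or more, 2 had another ChIP peak within 5 kb (11.8%). Neighbouring ChIP calls on Uextra were 172 kb apart in the median, against 1.48 kb on the large arms.

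These 8 sites do not appear in either filtered list, which hold 0 peaks on U and Uextra. Overlap of Uextra peaks with them is therefore 0 by construction. On the large arms, 98.4% of the full ChIP peaks with a height of 50 or more overlapped a 0.5% peak. Whether the unplaced scaffolds were set aside before filtering is not stated. None of the 11 ChIP peaks of U reached a height of 20, which allows up to 28.5%, and 4 (36.4%) reached 10, against 31.3% of the whole list. Their median height was 6.72 and the highest, from 9151259 to 9151528, had 12.5, with an input peak of height 13.85 centred 129 bp away.

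**Figure D4:**
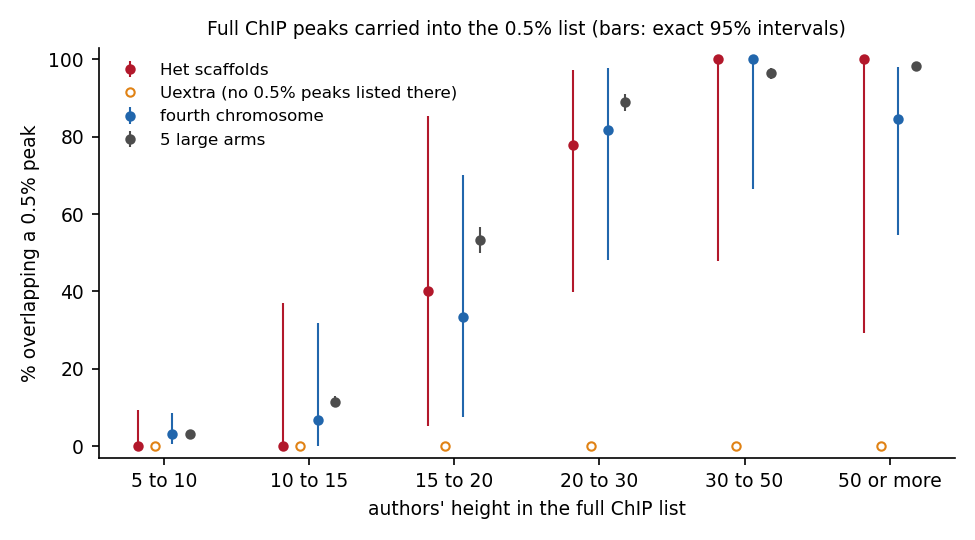
Share of full L(3)mbt ChIP peaks that overlap a 0.5% peak (vertical axis, percent) by the authors' height in the full list, for the Het scaffolds, Uextra, the fourth chromosome and the large arms, with exact 95% intervals except on Uextra. At heights of 50 or more the share is 100% on the Het scaffolds (3 of 3 peaks) and 98.4% on the large arms. On the fourth chromosome it is 100% (9 of 9) at 30 to 50 and 84.6% (11 of 13) at 50 or more. It is 0 on Uextra because the 0.5% list holds no peak there.

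The strongest input calls of all lay on U. Of the 10 input peaks with a height of 20 or more in the whole list, 6 were on U, 1 on Uextra and 3 on the large arms. The 6 belong to a cluster of 7 input peaks over 13.5 kb, from 5288429 to 5301951. The highest, from 5299379 to 5299648, had a height of 46.5, and those from 5295499 to 5295768 and from 5294467 to 5294736 had 46.05 and 45.6. Each of these is more than 2 times as high as the highest input peak on the large arms, which had 22. The centres of neighbours in the cluster were between 1012 and 4481 bp apart, and 3 of the distances were 1032, 1012 and 1291 bp. No full ChIP peak lay within the cluster, and the nearest was 1272 kb away in the joined record. The single Uextra peak among the 10, from 12442223 to 12442492, had a height of 23.8.

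ChIP and input peaks occupied different stretches of Uextra. Its first 1.03 Mb held 6 of the 75 ChIP peaks and 29 of the 33 input peaks, and the rest of its 28.9 Mb held 69 ChIP and 4 input peaks. That boundary was chosen after the values were seen. By stretches of 25% of the span, ChIP peaks numbered 20, 10, 11 and 34 and input peaks 29, 1, 1 and 2. Those ChIP peaks with a height of 20 or more numbered 9, 1, 4 and 3. The longest stretch without a ChIP peak on Uextra, from 19604099 to 22164648, held 1 input peak, and the longest without an input peak ran from 1032824 to 12442222 and held 20 ChIP peaks. On U, ChIP calls numbered 2, 3, 0 and 6, while input calls gathered towards the start, with 79, 7, 18 and 2. Its longest stretches without a ChIP and without an input call ran from 4016106 to 7531519 and from 6574186 to 8526820.

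**Figure D5:**
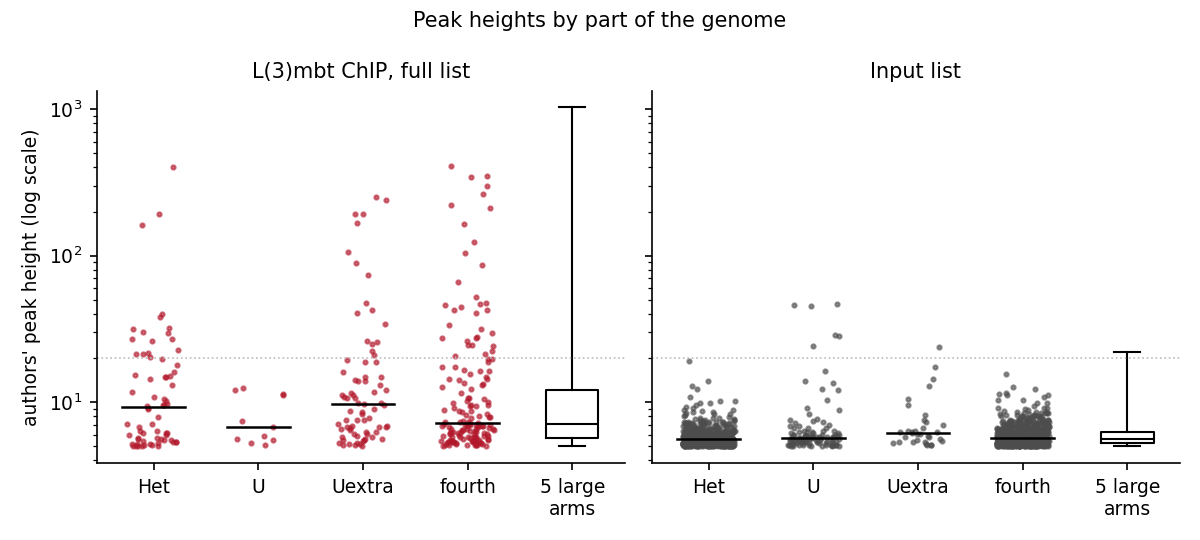
The authors' peak height (log scale) in the full L(3)mbt ChIP list, left, and in the input list, right, with 1 point per peak and the median as a bar for the Het scaffolds, U, Uextra and the fourth chromosome, and for the 5 large arms a box of the middle 50% with whiskers to the lowest and highest peak. The dotted line is a height of 20, passed by 17 ChIP peaks on the Het scaffolds and 17 on Uextra; heights of the lists are not on a known common scale.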

How the data were processed

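The data are 4 peak lists. Per the labels' protocols, ChIP and input libraries of 2 strains followed Illumina's ChIP-seq protocol. The submitters' processing notes name Bowtie, with no version. The peak caller, pypeak, is known from the authors' naming of the lists. Its settings, the genome build and whether strains were pooled are not stated in the sources used here, and the chromosome names are release 5 names. The deposited lists give 1 signal value per peak: a score over 400 bp in the filtered lists (times 400 a whole number for 100% of peaks, within 0.01), and a height over 270 bp, never below 5, in the full ChIP list and in the list named control, taken as input. Scaling is not stated, so values were compared within a list only, apart from the stated ratios of a peak's score to its height. Columns from other samples numbered 0.

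Starts were shifted to count from 1. Counts have exact Poisson, shares exact Clopper-Pearson, density ratios exact conditional and medians exact order-statistic 95% intervals. No p-value was computed. Distances are between centres, with 2 exceptions. Merging joined neighbours with fewer than 1000 bp between their facing ends. The distance from an input cluster to the nearest full ChIP peak also ran between facing ends. Functions were tested on simulated data. The regions named are all 0.5% and further 3% peaks, the highest peak of each scaffold, the 8 ChIP and 3 input peaks highest on U and Uextra, and closest pairs and longest gaps; the input clusters were added after their values were seen. Members, lists and comparisons were chosen with earlier results of these data known. The tools were matplotlib 3.10.9, pandas 2.3.3, scipy 1.17.1, numpy 2.4.6 and Python 3.11.15.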

Additional observations from a re-analysis of the deposited data

How the results depend on the processing

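No paired analysis was possible because each list stands for a whole group and names no strain. Of 65 repeats over 27 results, 32 stayed within 1.5 times a count or within the interval of the value and 33 moved further. None (0) turned to the other side of 1, which has a meaning for the density ratios only. The 17 Het peaks were 12 to 16 with each scaffold left out in turn, which follows from the counts per scaffold, and their median score 11.6 to 11.8. The ratios of Het to arm density per 10 kb window with a listed peak were 0.223, 0.160 and 0.504 for the 0.5%, full ChIP and input lists, and for input 0.143 against the autosomal arms and 0.124 against the fourth chromosome. The arms' share of full ChIP peaks with a 0.5% peak was 18.3% with 50% covered, 17.7% with centres within 100 bp and 29.0% for the 3% list. By construction a height of 10 gave larger shares and one of 50 smaller: for ChIP 44.1% and 4.41% on Het, 45.3% and 9.30% on U and Uextra, 31.1% and 6.83% on the arms; for input 1.31% on Het, 12.2% and 0 on U and Uextra, 0.722% and 0 on the arms. Overlap of 0.5% peaks with input was 0 on Het and 0.0613% on the arms with 50% covered, and 12.2% on the arms with centres within 500 bp; for the full ChIP list it was 0 and 0.280% with 50% covered, and 22.1% and 18.8% within 500 bp. Merging neighbours within 1000 bp moved median distances on the arms to 20.6 kb (0.5%), 6.52 kb (full ChIP) and 3.62 kb (input), and on Het to 54.0 kb (full ChIP, within its interval but over 1.5 times) and 9.33 kb (input); input peaks of height 6 or more gave 16.9 kb on Het and 4.05 kb on the arms. Input peaks on Uextra numbered 21 after merging. Few peaks limit every Het value, and depth is unknown.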
